A study of Mus musculus with 8 samples.

Results

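The 39 genes described here are the Hox genes of the mouse, taken as all rows of the deposited gene table whose symbol is Hox followed by a cluster letter from a to d and a paralog number, 39 of 35756 rows. The table listed 11 of them in the HoxA cluster on chromosome 6, 10 in HoxB on chromosome 11, 9 in HoxC on chromosome 15 and 9 in HoxD on chromosome 2 (GRCm38). Hox genes encode homeodomain transcription factors. In the embryo they are switched on one after the other along each cluster, so that genes at one end (anterior, low paralog numbers) act nearer the head and genes at the other end (posterior, high numbers) nearer the tail and in the limbs. Adult fibroblasts, smooth muscle cells and blood progenitors keep part of this code, and several members act in vessels, where HOXD3, HOXA3, HOXB3 and HOXA9 are known to favour angiogenesis and HOXD10 and HOXA5 to hold it back.

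The study asked what a vascular overexpression of PPARβ/δ, a nuclear receptor encoded by Ppard, does in tumor endothelial cells. All mice were on C57BL/6 and were Tie2-CreERT2;PPARβ/δ animals, that is, they carried a Cre recombinase that Tamoxifen activates under the Tie2 promoter and a PPARβ/δ construct that this Cre switches on. Of the mice, 4 received Tamoxifen in sunflower oil and 4 the oil alone (vehicle), LLC1 Lewis lung carcinoma cells were implanted under the skin after the injections, and cells were taken from the tumors with CD31 beads and sequenced, with 1 library per animal number (oil2453, oil2315, oil2653 and oil2368 for vehicle; Tax2604, Tax2689, Tax2382 and Tax2455 for Tamoxifen). Although the labels name the vehicle animals wild-type, by the methods they carried the same alleles as the Tamoxifen animals. The mice were adult and matched for age, with no age in weeks stated in the sources used here, and Tie2 is also active in some blood cells, so Cre need not act in endothelium alone. A library of Tie2-CreERT2 mice with Tamoxifen was not analysed here, and an effect of Tamoxifen or of active Cre cannot be told apart from that of the overexpression.

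The libraries held 19730726 to 24884372 counts. Values are given as CPM, counts scaled to a common library size with edgeR's TMM factors, in the library order above. Ppard was at 74.0, 88.2, 53.3 and 81.8 CPM with vehicle and at 122, 70.8, 120 and 118 CPM with Tamoxifen, a log2 fold change of 0.53 (SE 0.25, adjusted p = 0.46 from edgeR), and the library labelled Tax2689 lay within the vehicle range. Summed CPM of 20 pan-endothelial markers ranged from 432 to 1924 with vehicle and from 2796 to 5411 with Tamoxifen, those of 12 mural cell markers from 58.1 to 235 and from 658 to 964, and those of 11 macrophage and monocyte markers from 5002 to 12178 and from 8414 to 15482. The CD31 fraction thus held endothelial, mural and myeloid RNA in every library, and fewer cells of a type cannot be told apart from less RNA per cell. Ribosomal protein genes took 20.3% of the counts of oil2453 and 4.46% to 10.1% of those of the other libraries, and hemoglobin genes took 0.474% and at most 0.0568%. The 9 epithelial and carcinoma markers summed to 771 CPM in oil2453 and to 144 to 246 CPM in the other libraries. In oil2653, B cell markers summed to 540 CPM (11.4 to 86.9 elsewhere) and T and NK cell markers to 309 CPM (22.4 to 86.2 elsewhere). The part of such RNA in the Hox levels was not tested. Where leaving out oil2453 turned the direction of a named gene or moved its value by much, the value without it is given as well.

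Most Hox genes were detectable in these cells. At least 1 count was found for 34 of the 39 genes, and for 29 (Tax2382) to 33 (Tax2455) of them in a single library. With vehicle, 31, 30, 31 and 31 Hox genes had a count, and with Tamoxifen 30, 31, 29 and 33. At 10 counts or more there were 17, 15, 20 and 18 with vehicle and 21, 25, 19 and 25 with Tamoxifen. The genes at 0 in all 8 libraries were Hoxb1, Hoxb13, Hoxc12, Hoxd12 and Hoxd13, which lie at or next to the outer ends of their clusters and are known from the hindbrain (Hoxb1) or from the tail end of the body and the limbs. A count of 0 allows up to 3 counts per library, or 0.121 to 0.152 CPM of the unscaled library total, as far as counting error goes.

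The clusters differed in which paralog groups were read. In HoxA, Hoxa2 to Hoxa11 had counts in every library, except Hoxa9 in oil2653, and Hoxa13 had 3 counts in oil2453, 1 each in Tax2689 and Tax2455 and 0 elsewhere. In HoxB, paralog groups 2 to 9 had counts in every library, without a gap. In HoxC, groups 4, 6, 8 and 9 were detected in every library at 1 to 37 counts, Hoxc5 and Hoxc10 in 7 of 8 libraries, Hoxc11 in 5 and Hoxc13, at 3 counts, in oil2653 alone. In HoxD, groups 4, 8, 9 and 10 were detected in every library, Hoxd3 in 7, Hoxd11 in 6 and Hoxd1 in 3. The heat map of all members shows this pattern, with the bright band of Hoxd8 and Hoxd9 in all libraries.

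**Figure D1:**
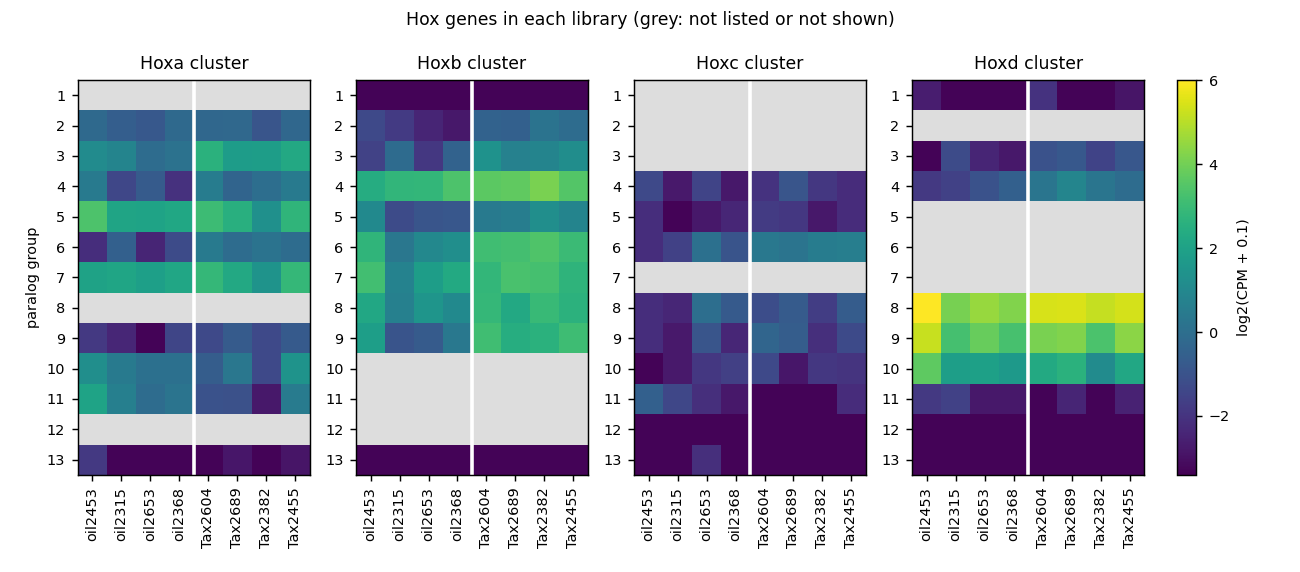
Level of each Hox gene (rows: paralog group; panels: cluster) in each of the 8 libraries (columns; vehicle left and Tamoxifen right of the white line), as log2(CPM + 0.1); grey marks paralog numbers that are not listed in the table or not shown. The outer ends of HoxB and HoxD are dark throughout, and so is most of HoxC. Paralog groups 2, 3, 6, 8 and 9 of HoxB and group 6 of HoxC are brighter to the right of the line.

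Per length of the gene, HoxD and HoxB held the highest members. By the mean of the deposited FPKM over all 8 libraries, Hoxd8, a gene also known from lymphatic endothelium, led with 21.3 FPKM (10.9 to 29.3 over the libraries). Hoxd9 followed with 7.72 FPKM (4.42 to 13.2), then Hoxb7 with 7.63 (2.09 to 12.8), Hoxb4 with 4.11 (1.57 to 6.37) and Hoxa7 with 4.02 (2.03 to 6.56). The ranges of Hoxd9, Hoxb7, Hoxb4 and Hoxa7 overlap, so their order is not fixed by these libraries. The highest member of HoxC was Hoxc6, a thoracic Hox gene, at 0.863 FPKM (0.0912 to 1.55). Within HoxD the level per length was lower on both sides of Hoxd8, with 2.69 FPKM at Hoxd10, 0.0364 FPKM at Hoxd11 and 0.442 FPKM at Hoxd4, as the plot of FPKM by paralog group shows.

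**Figure D2:**
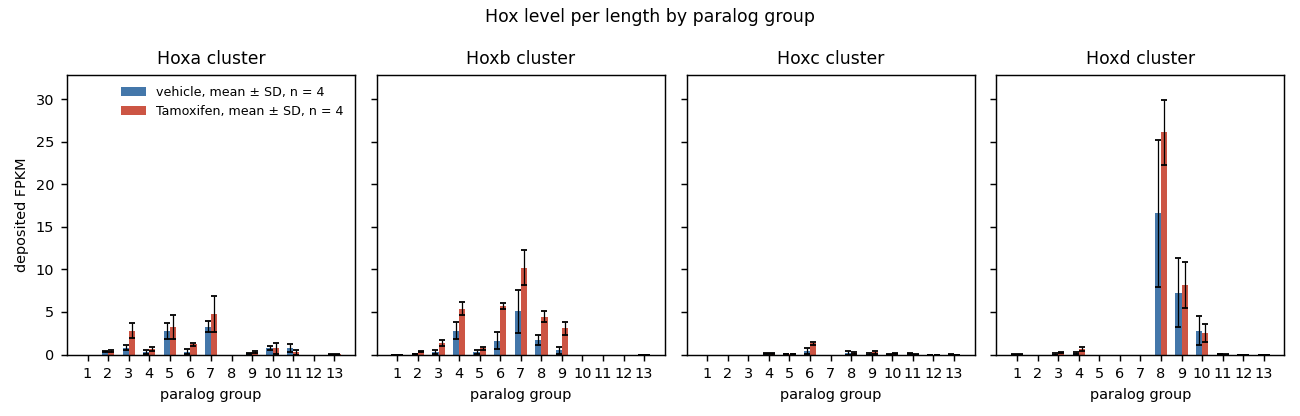
Deposited FPKM (y axis, level per length) by paralog group (x axis) for the 4 clusters; bars are means of 4 vehicle (blue) or 4 Tamoxifen (red) libraries and whiskers are SD. Hoxd8 stands highest in both groups (16.6 with vehicle and 26.1 with Tamoxifen), and Hoxb7 is second with Tamoxifen (10.2, beside 5.1 with vehicle).

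Of the 22 Hox genes that passed the filter for low counts, 10 were higher with Tamoxifen at an unadjusted p under 0.05 (edgeR's quasi-likelihood test), against 7.39% of all 14539 genes tested. They were Hoxa3, Hoxa6, Hoxb2, Hoxb3, Hoxb4, Hoxb6, Hoxb8, Hoxb9, Hoxc6 and Hoxd4. None was lower, against 3.54% of all genes. In the same 10 genes every Tamoxifen library lay above every vehicle library, against 5.87% of all genes tested, and in none of the 22 did every Tamoxifen library lie below, against 2.01%. The log2 fold change was positive in 16 and negative in 6 of the 22, with a median of 0.91, beside a median of -0.03 and 47.2% positive over all genes. Without oil2453, 14 of 22 were higher at an unadjusted p under 0.05 (8.84% of all genes), and the median was 1.27. A gene that passed the filter only through the group where it is high was favoured to differ. Of the 10, Hoxa6, Hoxb2, Hoxb3, Hoxb9, Hoxc6 and Hoxd4 reached 10 counts in all 4 Tamoxifen libraries but not in all 4 vehicle libraries. With 10 counts required in each of the 8 libraries, 11 Hox genes were tested and 4 were higher (Hoxa3, Hoxb4, Hoxb6 and Hoxb8). The share of all genes higher under that filter was not taken, so this count is a description without a comparison. With no filter, 10 of 34 were higher, against 5.88% of all genes with a count.

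No Hox gene passed after Benjamini-Hochberg adjustment over all genes, and neither did any other gene (0% of 14539 in edgeR, 1590 of them at an unadjusted p under 0.05, and 0 in limma-voom). The lowest adjusted p of a Hox gene was 0.142, and the lowest of any gene 0.0732. DESeq2 called 574 genes, and 5 of the 22 Hox genes were among those higher with Tamoxifen, against 3.8% of the genes it tested: Hoxa3 (adjusted p = 0.00344), Hoxb2 (0.025), Hoxb3 (0.00707), Hoxb9 (0.0119) and Hoxd4 (0.041). In simulated counts with 200 changed genes, DESeq2 recovered 30 of the smaller and 80 of the larger changes, with 32 false calls. There edgeR recovered 4 and 50, with 1 false call, so in the simulation it missed many changes and DESeq2 called more genes wrongly. The simulation held no library set apart like oil2453, so it does not show how reliable the 5 Hox calls of DESeq2 are. With oil2453 left out, edgeR called 256 of 14860 genes tested, and 3 of 22 Hox genes were among them: Hoxb6 (adjusted p = 0.0382, log2 fold change 2.35), Hoxb9 (0.0382 and 3.32) and Hoxd8 (0.0417 and 1.08). When any other single library was left out, no Hox gene passed adjustment. The plot of fold changes along the clusters gives all 22.

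**Figure D3:**
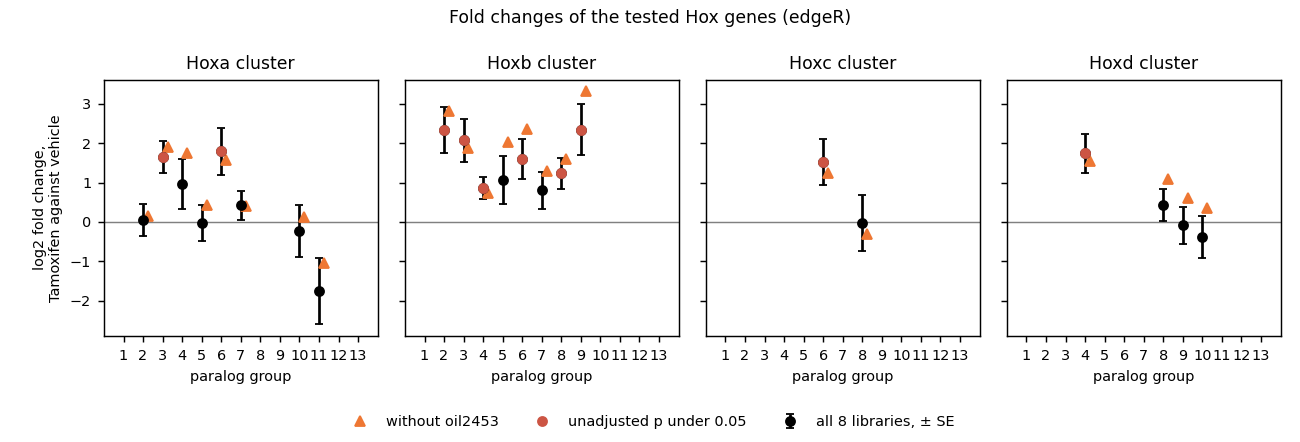
Log2 fold change of Tamoxifen against vehicle (y axis) by paralog group (x axis) for the 22 tested Hox genes; circles are edgeR estimates from all 8 libraries with SE, red where the unadjusted p is under 0.05, and triangles are estimates without oil2453. All 8 HoxB circles lie above 0 (0.80 to 2.34), and the lowest circles of HoxA and HoxD are those of Hoxa11 (-1.76) and Hoxd10 (-0.38).

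HoxB was the cluster in which most members were higher. Of 8 tested genes, 8 had a positive log2 fold change, beside 47.2% of all genes. Of these, 6 were at an unadjusted p under 0.05 in edgeR, beside 7.39% of all genes higher at that threshold. Among the 6, Hoxb2, Hoxb3 and Hoxb9 lacked 10 counts in some vehicle library, and Hoxb4, Hoxb6 and Hoxb8 had 10 or more in each. Hoxb9, at the posterior end of the expressed stretch and known to drive angiogenic factors in breast carcinoma cells, was at 3.55, 0.417, 0.514 and 1.19 CPM with vehicle and at 8.64, 5.33, 6.03 and 8.36 CPM with Tamoxifen. The groups did not overlap, and among the vehicle libraries oil2453 was the highest. The log2 fold change was 2.34 (SE 0.65, unadjusted p = 0.0053, adjusted p = 0.183 from edgeR) and 3.32 without oil2453.

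Hoxb8, a gene that blocks the maturation of myeloid progenitors when overexpressed, was at 4.64, 1.53, 2.74 and 2.01 CPM with vehicle and at 7.17, 4.70, 7.47 and 6.21 CPM with Tamoxifen. The lowest Tamoxifen library, Tax2689, lay just above oil2453. Its log2 fold change was 1.23 (SE 0.39, unadjusted p = 0.0113, adjusted p = 0.274 from edgeR). Hoxb6, known for a part in early erythroid and myeloid cells, was at 6.63, 1.16, 1.88 and 2.28 CPM with vehicle and at 8.49, 9.10, 10.5 and 8.01 CPM with Tamoxifen. The Tamoxifen libraries lay close together, and oil2453 was nearer to them than to the other vehicle libraries. The log2 fold change of Hoxb6 was 1.60 (SE 0.51, unadjusted p = 0.0106, adjusted p = 0.264 from edgeR). Hoxb7, reported to raise fibroblast growth factor 2 in tumor cells, was at 8.80, 1.62, 3.42 and 4.88 CPM with vehicle and at 6.97, 9.77, 9.38 and 6.44 CPM with Tamoxifen, so that oil2453 lay inside the Tamoxifen range. Its log2 fold change was 0.80 (SE 0.47, unadjusted p = 0.118 from edgeR), and 1.30 without oil2453 (unadjusted p = 0.00958).

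Hoxb4, which expands blood stem cells when overexpressed, is one of the more highly read HoxB genes per length. It was at 5.30, 6.72, 6.93 and 10.4 CPM with vehicle and at 12.3, 13, 17.3 and 11.0 CPM with Tamoxifen. In contrast to Hoxb6 to Hoxb9, oil2453 was the lowest vehicle library here. The log2 fold change of Hoxb4 was 0.87 (SE 0.28, unadjusted p = 0.012, adjusted p = 0.281 from edgeR). Hoxb5, a paralog known to activate Kdr in endothelial precursors, lay between 0.324 and 1.99 CPM with vehicle and between 1.28 and 2.25 CPM with Tamoxifen, with a log2 fold change of 1.07 (SE 0.61, unadjusted p = 0.115) and of 2.02 without oil2453.

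The anterior genes Hoxb3 and Hoxb2 had few reads, under 10 counts in 2 or more vehicle libraries, so that they passed the filter through the Tamoxifen group. Hoxb3, which promotes capillary morphogenesis, was at 0.241, 0.834, 0.171 and 0.639 CPM with vehicle and at 2.55, 1.57, 1.70 and 2.22 CPM with Tamoxifen, a log2 fold change of 2.07 (SE 0.54, unadjusted p = 0.00374, adjusted p = 0.162 from edgeR). Hoxb2, a hindbrain and branchial arch gene, had 5, 4, 2 and 1 counts with vehicle and 13, 14, 24 and 22 with Tamoxifen, a log2 fold change of 2.33 (SE 0.59, unadjusted p = 0.00283, adjusted p = 0.142 from edgeR). In GENCODE M21, 52.9% of the exonic bases of Hoxb3 and 27.3% of those of Hoxb2 are shared with the antisense gene Hoxb3os, and whether the counting used strand is not given, so reads of the sense and antisense genes cannot be told apart there. Hoxb4, Hoxb6, Hoxb7, Hoxb8 and Hoxb9 share no exonic base with another gene.

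**Figure D4:**
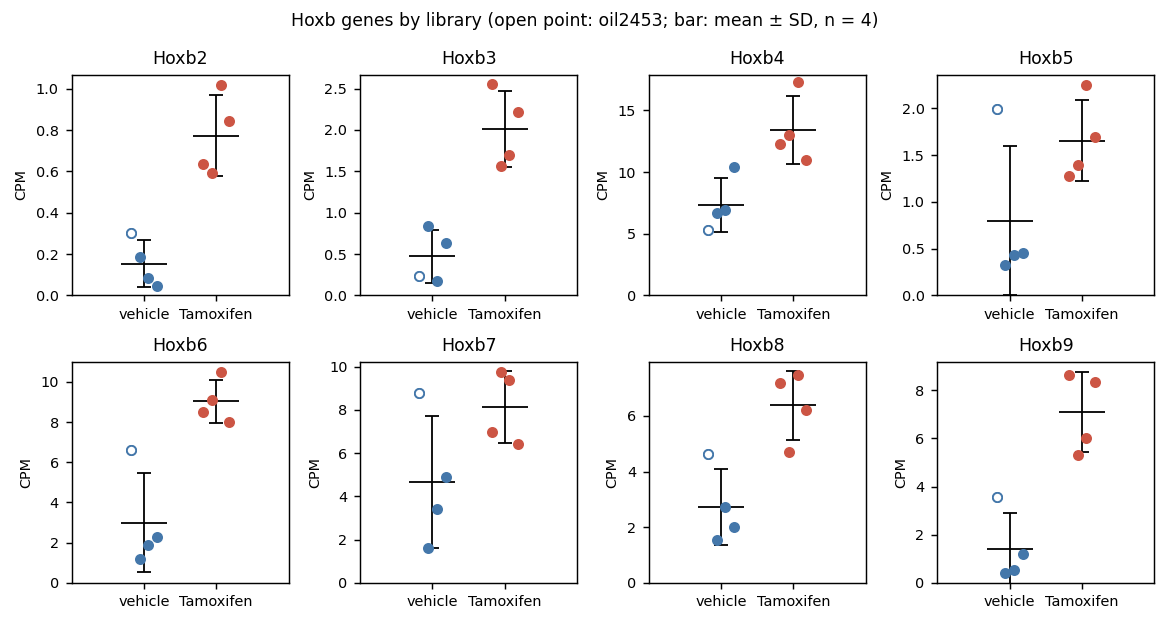
CPM (y axes, each from 0) of the 8 tested HoxB genes in the 4 vehicle (blue) and 4 Tamoxifen (red) libraries; the open point is oil2453 and the bars are mean and SD (n = 4 each). In Hoxb2, Hoxb3, Hoxb4, Hoxb6, Hoxb8 and Hoxb9 all red points lie above all blue ones, and in Hoxb5 and Hoxb7 oil2453 reaches into the Tamoxifen range.

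Over the whole cluster, HoxB genes summed to 31.4, 12.8, 16.2 and 21.9 CPM with vehicle and to 48.1, 45.4, 55.6 and 44.8 CPM with Tamoxifen, or 20.6 ± 8.17 and 48.5 ± 4.96 CPM (SD, n = 4 each), a ratio of 2.35. HoxB made up 21.2% to 33.5% of the summed FPKM of all Hox genes with vehicle and 32.0% to 47.5% with Tamoxifen, which overlap. Pan-endothelial and mural markers separated the groups in the same direction: 18 of 20 and 10 of 12 were higher at an unadjusted p under 0.05, with median log2 fold changes of 2.17 and 2.10. Per 1000 CPM of pan-endothelial markers, HoxB genes were at 16.3 to 29.6 CPM with vehicle and at 8.88 to 16.0 CPM with Tamoxifen, and per 1000 CPM of mural markers at 91.6 to 220 and at 49.8 to 78.3 CPM. Mcam was the largest part of the mural sum in every library, at 151, 22.9, 62.6 and 86.8 CPM with vehicle. With Tamoxifen, Mcam was at 526, 263, 460 and 343 CPM. Per 1000 CPM of fibroblast markers, a sum with Col3a1 as its largest part, HoxB genes were at 10.4 to 16.9 CPM with vehicle and at 14.3 to 124 CPM with Tamoxifen. So HoxB was higher with Tamoxifen per total RNA and lower per endothelial or mural marker RNA, but not per fibroblast marker RNA. The lower marker ratio was not particular to HoxB. Per 1000 CPM of pan-endothelial markers, HoxA was at 10.6 to 33.6 CPM with vehicle and at 2.49 to 9.38 CPM with Tamoxifen. HoxD was at 24.8 to 70.5 and at 10.5 to 24.4 CPM. Scaled to the pan-endothelial markers, which moved the median of all genes to -2.25, the log2 fold changes of the 22 Hox genes had a median of -0.91. None of them was then higher at an unadjusted p under 0.05 (0.0138% of all genes) and 9 were lower (89.5% of all genes), and of the 10 genes above only Hoxb9 (0.76) and Hoxb2 (0.35) kept a positive value. The part that more endothelial or mural RNA has in the Hox differences was not tested.

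**Figure D5:**
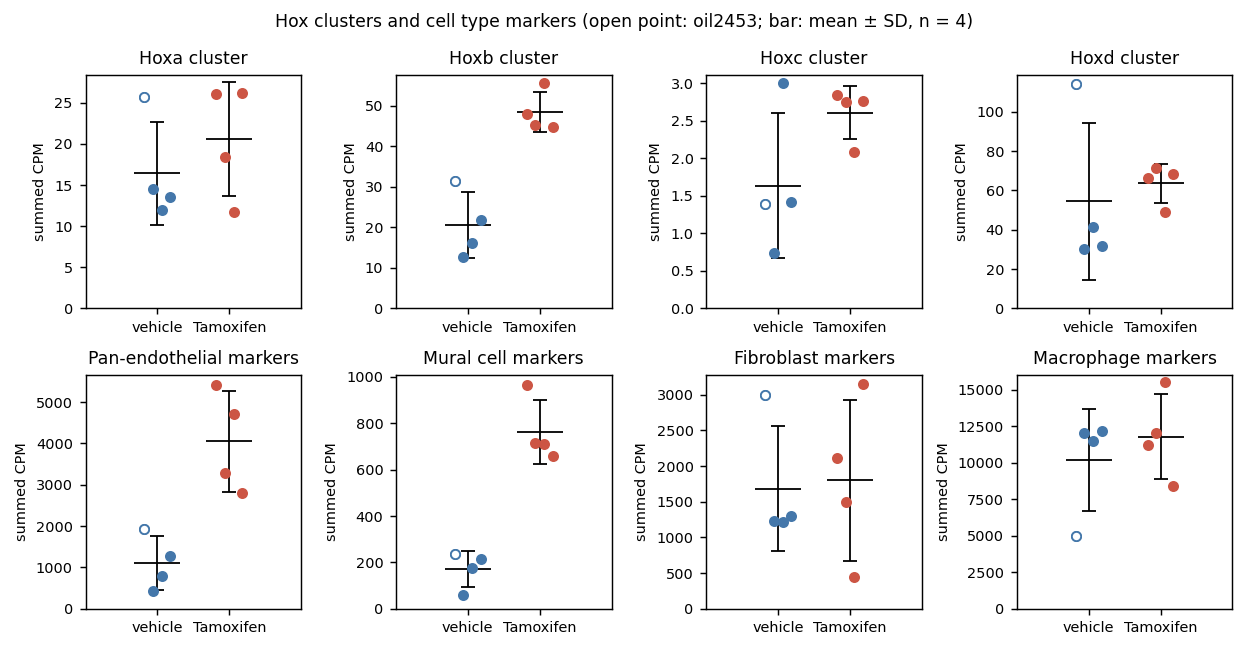
Summed CPM (y axes, each from 0) of the 4 Hox clusters (upper row) and of markers of 4 cell types (lower row) in the 4 vehicle (blue) and 4 Tamoxifen (red) libraries; the open point is oil2453 and the bars are mean and SD (n = 4 each). Of these panels, HoxB, pan-endothelial and mural markers have all red points above all blue ones; oil2453 is the highest vehicle library in HoxA, HoxB, HoxD and the endothelial, mural and fibroblast panels, and the lowest in the macrophage panel. The largest part of the fibroblast sum is Col3a1, and not every fibroblast marker is highest in oil2453. The largest part of the mural sum is Mcam, at 151 CPM in oil2453. Of the vehicle libraries, oil2453 is highest for Mcam and Kcnj8, but oil2368 is highest for Rgs5, Myh11 and Notch3.

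In HoxA, the anterior gene Hoxa3 and the central gene Hoxa6 were higher with Tamoxifen at an unadjusted p under 0.05. Hoxa3, which speeds vessel growth in wounds, was at 2.11, 1.67, 0.856 and 1.0 CPM with vehicle and at 6.04, 3.34, 3.44 and 4.75 CPM with Tamoxifen. The groups did not overlap, and the log2 fold change was 1.64 (SE 0.41, unadjusted p = 0.0028, adjusted p = 0.142 from edgeR). Of its exonic bases, 25.4% are shared with antisense genes and 8.0% with other genes of the same strand. Hoxa6, a thoracic patterning gene, had 2, 13, 2 and 7 counts with vehicle and 26, 20, 24 and 22 with Tamoxifen, a log2 fold change of 1.79 (SE 0.60, unadjusted p = 0.0147, adjusted p = 0.302 from edgeR), and shares no exonic base with another gene.

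The most abundant HoxA genes overlapped between the groups. Hoxa7 lay between 3.68 and 4.34 CPM in the vehicle libraries and was at 7.22, 4.74, 2.59 and 7.21 CPM with Tamoxifen, with a log2 fold change of 0.42 (SE 0.36, unadjusted p = 0.279). Hoxa5, a repressor of angiogenesis in endothelial cells, was at 10.4, 4.12, 4.07 and 4.47 CPM with vehicle and at 8.10, 5.63, 2.42 and 6.56 CPM with Tamoxifen, with a log2 fold change of -0.02 (SE 0.46) that was 0.44 without oil2453 and 0.23 without Tax2382. Hoxa4 ranged from 0.137 to 1.27 CPM and from 0.677 to 1.37 CPM, with a log2 fold change of 0.96 (SE 0.64) that became 1.75 without oil2453. Hoxa2, a branchial arch gene, was at 0.646 ± 0.158 CPM with vehicle and 0.663 ± 0.159 CPM with Tamoxifen (SD, n = 4 each).

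Hoxa9, which regulates Nos3 and Kdr in endothelial cells and is needed by blood progenitors, fell below the filter. It had 3, 2, 0 and 6 counts with vehicle and 6, 12, 7 and 13 with Tamoxifen. Although in CPM (0 to 0.274 with vehicle and 0.295 to 0.508 with Tamoxifen) the groups did not overlap, Tax2604 and oil2368 had the same 6 counts.

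Hoxa10 and Hoxa11 followed another order of the libraries. Hoxa11, which patterns the forearm, kidney and uterus, was at 4.10, 1.48, 0.856 and 1.05 CPM with vehicle and at 0.393, 0.381, 0.0425 and 1.34 CPM with Tamoxifen. The groups overlapped through Tax2455 alone. Its log2 fold change was -1.76 (SE 0.84, unadjusted p = 0.0648 from edgeR), with an unadjusted p of 0.0386 from DESeq2, and it was -1.04 without oil2453 (unadjusted p = 0.226 from edgeR) and -2.73 without Tax2455 (unadjusted p = 0.0114 from edgeR). Hoxa10, its neighbour, was at 2.29, 1.25, 0.941 and 0.959 CPM with vehicle and at 0.540, 1.14, 0.297 and 2.57 CPM with Tamoxifen, with a log2 fold change of -0.24 (SE 0.66) that was 0.13 without oil2453, 0.02 without Tax2604, 0.07 without Tax2382 and -1.01 without Tax2455. In both genes Tax2382 was the lowest and Tax2455 the highest Tamoxifen library. The 12 fibroblast markers summed to 2997, 1226, 1221 and 1295 CPM with vehicle and to 2110, 1492, 449 and 3144 CPM with Tamoxifen, so that Tax2382 was lowest and Tax2455 highest there too. Col3a1 was the largest part of this sum in every library, at 2490, 930, 610 and 757 CPM with vehicle. The markers differed in vehicle order: Dcn and Pdgfra were also highest in oil2453, but Col1a1 was at 35.5, 23.6, 176 and 164 CPM. With Tamoxifen, Col1a1 was at 225, 186, 118 and 344 CPM. Of the Tamoxifen libraries, Tax2382 was also the lowest for Hoxa5 and Hoxd9. The part of fibroblast RNA in these levels was not tested. Hoxa11 shares 35.0% of its exonic bases with the antisense gene Hoxa11os, which was at 4.70, 1.39, 1.16 and 0.822 CPM with vehicle and at 0.0982, 0.508, 0.127 and 1.84 CPM with Tamoxifen.

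HoxD held the largest share of the summed Hox FPKM in 7 of 8 libraries, 42.9% to 62.2% with vehicle and 39.1% to 47.8% with Tamoxifen, and was exceeded by HoxB in Tax2382 (47.5%). Hoxd8 was at 63.4, 16.8, 23.5 and 18.4 CPM with vehicle and at 42.6, 44.3, 35.9 and 41.8 CPM with Tamoxifen. Without oil2453 every Tamoxifen library lay above every vehicle library, and oil2453 lay above them all. The log2 fold change was 0.43 (SE 0.41, adjusted p = 0.694 from edgeR) with all libraries. Hoxd9, with a role in the limb and the lumbar spine, was at 37.1, 9.27, 13.8 and 9.59 CPM with vehicle and at 17.1, 18.6, 9.98 and 20.4 CPM with Tamoxifen, a log2 fold change of -0.08 (SE 0.47) that was 0.61 without oil2453. Hoxd10, known to keep endothelial cells quiescent, was at 12.7, 3.57, 3.77 and 3.06 CPM with vehicle and at 4.91, 6.05, 2.08 and 4.60 CPM with Tamoxifen, a log2 fold change of -0.38 (SE 0.53) that was 0.36 without oil2453. Hoxd9 also turned to 0.10 without Tax2382, and its sign changed with the scaling and the tool as well.

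The anterior end of HoxD was little read. Hoxd4, a hindbrain gene, had 3, 5, 9 and 13 counts with vehicle and 22, 41, 26 and 22 with Tamoxifen, and in CPM the groups did not overlap (0.181 to 0.593 and 0.844 to 1.73). Its log2 fold change was 1.74 (SE 0.49, unadjusted p = 0.0059, adjusted p = 0.194 from edgeR). Hoxd3, which raises integrin β3 in endothelial cells at the start of angiogenesis, had 0, 7, 2 and 1 counts with vehicle and 8, 11, 6 and 12 with Tamoxifen and was below the filter. Another protein-coding entry, spelled HOXD3 and so not a member here, overlaps Hoxd3 and Hoxd4 on the same strand. It had 0, 9, 2 and 7 counts with vehicle and 8, 11, 17 and 16 with Tamoxifen and was also below the filter. Hoxd3 and Hoxd4 share exons, 62.3% and 52.3% of their exonic bases lying in other genes of the same strand, so their reads may have been split or lost in counting.

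In HoxC, Hoxc6 was at 0.120, 0.232, 0.941 and 0.411 CPM with vehicle and at 1.18, 1.06, 1.36 and 1.42 CPM with Tamoxifen. The groups did not overlap, with a log2 fold change of 1.52 (SE 0.58, unadjusted p = 0.0266, adjusted p = 0.389 from edgeR), and the unadjusted p was over 0.05 without oil2315 (0.0666), oil2368 (0.0573), Tax2382 (0.0505) or Tax2455 (0.0568). Without oil2653, the vehicle library with the highest Hoxc6, the log2 fold change was 2.25 (unadjusted p = 0.00279 from edgeR). Hoxc8, its neighbour in the thoracic group, was at 0.403 ± 0.379 CPM with vehicle and 0.400 ± 0.151 CPM with Tamoxifen (SD, n = 4 each). Its fitted difference of -0.03 on the log2 scale was 0.71 without oil2653. Hoxc9, reported to keep endothelial cells quiescent, had 2, 1, 10 and 2 counts with vehicle and 14, 13, 3 and 8 with Tamoxifen. Hoxc11, a posterior gene of the hindlimb, had 10, 6, 3 and 1 counts with vehicle and 0, 0, 0 and 3 with Tamoxifen. Both were below the filter, and each overlapped between the groups. Without the filter, the log2 fold change was 1.22 (SE 0.80, unadjusted p = 0.151 from edgeR) for Hoxc9 and -2.83 (SE 1.18, unadjusted p = 0.0333 from edgeR) for Hoxc11, with 3.13% of 23453 genes lower at an unadjusted p under 0.05 in that fit.

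By position along the body axis, 3 of 4 tested anterior genes (paralog groups 1 to 3), 6 of 13 central genes (4 to 8) and 1 of 5 posterior genes (9 to 13), Hoxb9, were higher at an unadjusted p under 0.05, beside 7.39% of all genes tested. Anterior genes summed to 3.86, 3.71, 2.23 and 2.69 CPM with vehicle and to 10.6, 7.07, 7.13 and 9.47 CPM with Tamoxifen, a ratio of the means of 2.75. Central genes summed to 107, 38.1, 49.8 and 49.3 CPM and to 99.7, 98.0, 92.6 and 94.1 CPM, with oil2453 above all Tamoxifen libraries. Posterior genes summed to 61.0, 16.7, 20.8 and 16.5 CPM and to 32.9, 32.7, 19.0 and 38.5 CPM, which overlapped also without oil2453. Of the higher genes counted here, Hoxb2, Hoxb3, Hoxa6, Hoxc6, Hoxd4 and Hoxb9 are those that lacked 10 counts in some vehicle library, so the counts by position are a description. Whether these parts of the code differ from each other was not tested.

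The start regions of the members were searched for motifs of PPARβ/δ and of Hox cofactors. RefSeq windows (GRCm38.p6) from 250 bases before to 50 after a transcription start were at hand for 22 of the 39 genes, 5 of them among the 10 higher ones. They held a median of 13.5 CpG dinucleotides, against 7 in all 32544 windows. PPARβ/δ with its partner RXR binds direct repeats of the half-site AGGTCA. On either strand, AGGTCA occurred in 7 of 22 Hox windows (31.8%) and in 16.2% of all windows, and a pair of half-sites 1 base apart (DR1) in 0 and in 13 of all windows (0.0399%). TGACAG, a core bound by MEIS cofactors, occurred in 2 of 22 (9.09%) and in 19.1%, and TGATTNAT, a PBX-HOX core, in 1 of 22 (4.55%) and in 3.23%. Of the 5 windows of higher genes, 2 held AGGTCA, those of Hoxb4 and Hoxd4, and it was also in that of Hoxd8, the most abundant member. A match describes letters only and says nothing of binding. These 3 windows and that of Hoxa3, with TGACAG, are printed 5′ to 3′ on the strand of the gene, with the match on either strand in capitals.
Hoxb4 (chr11:96318017-96318316, plus strand): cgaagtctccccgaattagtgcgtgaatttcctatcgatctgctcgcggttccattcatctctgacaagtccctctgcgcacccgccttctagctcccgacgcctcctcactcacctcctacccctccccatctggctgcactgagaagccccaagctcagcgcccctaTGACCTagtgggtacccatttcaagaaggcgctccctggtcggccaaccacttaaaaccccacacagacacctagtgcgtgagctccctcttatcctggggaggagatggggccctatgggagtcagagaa
Hoxd4 (chr2:74721728-74722027, plus strand): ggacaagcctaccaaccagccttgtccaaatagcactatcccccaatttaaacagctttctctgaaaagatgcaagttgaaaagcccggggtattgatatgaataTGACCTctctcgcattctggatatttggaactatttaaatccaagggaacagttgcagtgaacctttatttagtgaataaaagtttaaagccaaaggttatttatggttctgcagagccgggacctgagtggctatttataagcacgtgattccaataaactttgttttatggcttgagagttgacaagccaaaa
Hoxd8 (chr2:74704365-74704664, plus strand): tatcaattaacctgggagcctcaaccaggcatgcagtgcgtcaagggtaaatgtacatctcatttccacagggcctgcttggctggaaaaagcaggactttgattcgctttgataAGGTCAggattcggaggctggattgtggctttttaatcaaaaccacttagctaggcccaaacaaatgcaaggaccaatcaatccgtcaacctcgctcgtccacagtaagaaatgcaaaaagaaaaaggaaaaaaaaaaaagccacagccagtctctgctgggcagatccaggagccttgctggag
Hoxa3 (chr6:52213018-52213317, minus strand): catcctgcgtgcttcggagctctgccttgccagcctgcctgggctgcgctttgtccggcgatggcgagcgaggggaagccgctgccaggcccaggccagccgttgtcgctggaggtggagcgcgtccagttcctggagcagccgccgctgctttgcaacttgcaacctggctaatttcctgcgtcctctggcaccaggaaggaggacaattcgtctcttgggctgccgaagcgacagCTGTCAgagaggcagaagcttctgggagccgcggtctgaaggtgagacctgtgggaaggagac
The matches begin at -81 (Hoxb4), -145 (Hoxd4), -135 (Hoxd8) and -13 (Hoxa3), counted from 0 at the start. The transcription starts inside the windows of Hoxb4 and Hoxd8 are those of the deposited table, whereas the start in the window of Hoxa3 lies 269 bases and that in the window of Hoxd4 10049 bases from the one the table gives.

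Few cofactors and regulators of Hox proteins were under an unadjusted p of 0.05. Of 9 tested TALE cofactors, which bind DNA together with Hox proteins, 1 was higher and 1 lower at an unadjusted p under 0.05, which is near the shares over all genes (7.39% and 3.54%). Pbx3 was at 11.3, 7.37, 6.59 and 8.58 CPM with vehicle and at 16.7, 12.2, 12.8 and 12.1 CPM with Tamoxifen, a log2 fold change of 0.67 (SE 0.25, adjusted p = 0.382 from edgeR). Pbx4 was at 1.57, 0.880, 1.11 and 0.411 CPM and at 0.491, 0.423, 0.127 and 0.230 CPM, a log2 fold change of -1.63 (SE 0.58, adjusted p = 0.341 from edgeR). None of 10 tested trithorax-side genes, which keep Hox genes on, and none of 17 polycomb genes, which keep them off, was under an unadjusted p of 0.05 in edgeR, with median log2 fold changes of 0.11 and -0.31. In limma-voom 1 trithorax-side gene was higher and 1 polycomb gene lower, and in DESeq2 0 and 1. Of 11 tested genes of the retinoic acid pathway, an inducer of anterior Hox genes in the embryo, 1, the receptor gene Rara, was higher, again near the 7.39% of all genes, at 79.5, 72.0, 70.2 and 70.7 CPM with vehicle and 112, 99.5, 156 and 112 CPM with Tamoxifen (log2 fold change 0.72, SE 0.20, adjusted p = 0.183 from edgeR). At the unadjusted threshold, 1 gene of this pathway was higher and 2 were lower in DESeq2, and 1 and 0 in limma-voom. Of 12 genes reported downstream of Hox proteins in endothelium, 5 were higher at an unadjusted p under 0.05 (Kdr, Tek, Nos3, Ephb4 and Itgb3), beside 7.39% of all genes. Kdr and Tek are also among the pan-endothelial markers above, most of which were higher too. The part of more endothelial RNA in this count was not tested. Integrin β3, Itgb3, a target of HOXD3, was at 90.7, 30.4, 44.5 and 73.9 CPM with vehicle and at 195, 91.7, 192 and 116 CPM with Tamoxifen, a log2 fold change of 1.31 (SE 0.39, adjusted p = 0.216 from edgeR).

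The neighbourhood of the clusters was examined as well. Of 11 tested flanking genes, 0 were under an unadjusted p of 0.05 in edgeR, DESeq2 or limma-voom, with a median log2 fold change of -0.27. Of 22 other annotated genes inside the clusters, mostly antisense and long noncoding RNAs, 19 had a count, 6 were tested and 0 were under an unadjusted p of 0.05 in edgeR or DESeq2, and 1 was in limma-voom, lower with Tamoxifen. Hotairm1, a noncoding RNA of the HoxA cluster known from myeloid cells, was at 13.6, 2.22, 2.82 and 2.69 CPM with vehicle and at 3.53, 4.06, 2.25 and 3.14 CPM with Tamoxifen. Its log2 fold change was -0.71 (SE 0.60) and 0.34 without oil2453, where it was by far the highest.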

How the data were processed

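RNA sequencing of tumor endothelial cells from 4 Tamoxifen and 4 vehicle Tie2-CreERT2;PPARβ/δ mice was analysed from the deposited gene table of 35756 rows. The authors filtered reads and counted them per gene. The submitters' processing notes name Bowtie2 2.2.3, TopHat2 2.0.12, HTSeq 0.6.1 and mm8, whereas the positions in the table fit GRCm38 (of 34490 identifiers shared with GENCODE M21, 99.8% overlap, and all 39 Hox genes do). Libraries were made with the NEBNext Ultra RNA kit, and the sources used here do not say how counting treated strand. The deposited counts are whole numbers. The authors also deposited FPKM of the same libraries, which were used to compare levels between genes. Fold changes and p-values of the authors' own comparison are in the table and were not used.

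R 4.3.3 with edgeR 4.0.16 (main test), limma 3.58.1 and DESeq2 1.42.0 were run. Counts were normalized by TMM and tested by quasi-likelihood in edgeR, for the 14539 genes kept at a minimum count of 10, with treatment as the single term, and p-values were adjusted by Benjamini-Hochberg over these genes, and an adjusted p under 0.05 was the call. The p-values measure the spread between these libraries, which the labels number but do not describe further. Intervals and floors cover counting error only. The fits were tested on simulated counts. Alternatives were other scalings, tools and filters, limma-trend on FPKM at log2(FPKM + 1) or log2(FPKM + 0.1), and leaving out each library.

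Members, gene lists and tests were chosen with earlier results of these data known, and Hoxb9 is on the study's own list of changed genes from these libraries. Described with values were the 2 members per cluster with the highest mean FPKM, all under an unadjusted p of 0.05 and all whose groups did not overlap. Other members, cofactors and noncoding RNAs named beside them were picked after their values were seen. For 1 member the values are not reported here.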

Additional observations from a re-analysis of the deposited data

Results flagged for a closer look

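In 50 groups of 4 libraries (named genes and sums), 8 had a library set apart from the other 3 by most of the group's range (Dixon's test), and chance gives about 1 in 20. The vehicle library oil2453 was the one set apart in 7 of them, always as the highest: Hoxa5 at 10.4 CPM, Hoxd8 at 63.4 CPM, Hoxd9 at 37.1 CPM, all Hox genes at 172 CPM, HoxD at 114 CPM, central paralog groups at 107 CPM and posterior ones at 61.0 CPM. These values share the reads of Hoxd8 and Hoxd9 and are not independent. In the Tamoxifen group, Tax2382 was set apart as the lowest for HoxC, at 2.08 CPM beside 2.75 to 2.85 CPM in the others.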

How the results depend on the processing

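Of 10 Hox genes higher at an unadjusted p under 0.05, 4 of 11 tested were left with a filter for 10 counts in each library and 0 with scaling to pan-endothelial markers. That scaling gave 9 lower, 9 passing adjustment, 0 with all Tamoxifen libraries above and 6 with all below. Lower genes numbered 1 in DESeq2, limma-voom and without a filter, and 0 to 1 when leaving out a library, as did genes with all Tamoxifen libraries below. Hox genes passing adjustment numbered 5 in DESeq2, 4 with log2(FPKM + 1), 2 with log2(FPKM + 0.1) and 0 to 3 when leaving out a library. The cause was not tested.

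Scaling to the pan-endothelial markers turned the median to -0.91, Hoxa3 to -0.55, Hoxa6 to -0.67, Hoxa7 to -1.75, Hoxb3 to -0.30, Hoxb4 to -1.34, Hoxb6 to -0.12, Hoxb7 to -0.94, Hoxb8 to -0.73, Hoxc6 to -0.62, Hoxd4 to -0.28 and Hoxd8 to -1.40, beside -2.25 for the median gene. Near 0, Hoxa5 turned to 0.19 with library size alone, 0.00 in limma-voom, 0.03 with the stricter filter and 0.09 with either FPKM scale, and ranged from -0.20 to 0.44 when leaving out a library. Hoxd9 turned to 0.16, 0.17 (limma-voom), 0.20 and 0.23 (FPKM + 1 and + 0.1), and ranged from -0.30 to 0.61. Of 245 values of named genes under an alternative, 205 kept their sign and their side of the unadjusted threshold, and 24 changed sign. With the sign kept, 10 passed the unadjusted threshold and 6 lost it. No paired analysis was possible because the groups share no animal number. The filter left out 17 of 39 Hox genes, of which 12 had a count.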
